A study of Mus musculus with 8 samples.

Results

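PD-1+ progenitors of mouse bone marrow were compared with common lymphoid progenitors (CLP) by RNA-seq of sorted cells. The comparison holds every library that the labels give for these populations, 2 of PD-1+ cells and 2 of CLP, which is 4 of the 8 libraries of the series. All cells came from C57BL/6 mice, an inbred strain; no other allele and no treatment is named, and the age of the animals is not given in the sources used here. For CLP, lineage-positive cells were depleted and live lineage-negative cells bearing Sca-1, Kit, Flt3 and CD127 but not integrin α4β7 were sorted. PD-1+ cells were sorted as live lineage-negative cells with CD127, integrin α4β7, Kit and PD-1 and without Flt3, ST2 or CCR6, after magnetic capture of cells bearing integrin α4β7. The labels name them as progenitors of innate lymphoid cells (ILCs) outside the lymphoid tissue inducer (LTi) lineage. The remaining populations served as references. ChILP, the helper-like innate lymphoid progenitor, was enriched like CLP and sorted on α4β7, CD127 and Kit without Flt3 or ST2, so its gate admits PD-1+ cells. CCR6+ cells, named as LTi progenitors, were captured magnetically like PD-1+ cells and lacked PD-1.

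ILCs are lymphocytes that respond to cytokines without rearranged antigen receptors. Their progenitors leave the common lymphoid stage by raising Id2, an inhibitor of the E proteins that hold cells to the B cell fate, and by switching on Tcf7, Gata3, Tox, Nfil3 and Zbtb16, which encodes the zinc finger factor PLZF. CLP themselves still carry the genes of antigen receptor rearrangement and depend on the growth factor receptor Flt3. PD-1, the product of Pdcd1, is an inhibitory receptor best known from activated T cells and is also carried by ILC progenitors.

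Over the 8 libraries, 7685188 to 13997897 reads per library were assigned to genes. Levels are given as RPKM, reads scaled to transcript length and library total, with the value of replicate 1 before that of replicate 2. Nothing in the labels ties the replicates of a population to separate animals, so p-values cover only how these samples vary, and that variation may be technical. The PD-1+ libraries differed from each other. Over 13619 genes the log2 CPM (counts scaled to the library total) of PD-1+ 2 had a Pearson r of 0.930 with CCR6+ 2, the highest of all library pairs, and of 0.870 with PD-1+ 1. For PD-1+ 1 that 0.870 was the highest r with any library, and every other library had a higher best value. PD-1+ 2 also held Ccr6, which its gate excludes: Ccr6 (NM_001190333) had no read in PD-1+ 1 and stood at 8.11 RPKM in PD-1+ 2, against 84.2 and 23.6 in CCR6+ cells. The markers given for the population were present in both PD-1+ libraries. Pdcd1 (NM_008798) stood at 0.823 and 0.319 RPKM in CLP and 181 and 36.3 in PD-1+ cells, and Zbtb16 (NM_001033324) at 2.28 and 0.855 RPKM in CLP and 46.1 and 11.8 in PD-1+ cells. CCR6+ libraries held 0 and 1.10 RPKM of Pdcd1 and 0.732 and 1.23 of Zbtb16. In Pdcd1 and Zbtb16 PD-1+ 2 lay below PD-1+ 1 and above both CCR6+ libraries. In Ccr6 it lay below both CCR6+ libraries. Whether samples were exchanged, or CCR6+ cells were carried over into PD-1+ 2, was not tested. Nor was a preparation shared by the replicate 2 libraries, or an ordinary difference between sorts. Each value of PD-1+ 2 and each mean over the PD-1+ group is therefore given under the label of that library.

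The groups also differed in transcripts of mature marrow cells, which are set apart here. Genes of a mature neutrophil list took 0.584% and 0.160% of all reads in CLP and 1.95% and 3.87% in PD-1+ cells. Genes of a red cell list took 1.45% and 0.664% in CLP and 5.37% and 6.26% in PD-1+ cells. The neutrophil share was 0.707% and 0.215% in ChILP and 2.69% and 4.05% in CCR6+ cells, and the red cell share 1.79% and 0.764% in ChILP and 7.91% and 6.16% in CCR6+ cells. Both shares were therefore high in each magnetically captured library and low in each lineage-depleted one. The route of enrichment and the cell population cannot be told apart in PD-1+ against CLP, and in sorted bulk samples fewer cells of a type and less RNA per cell cannot be told apart either.

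A gene was called at an adjusted p under 0.05 by the quasi-likelihood test of edgeR, adjusted after Benjamini and Hochberg over all 13619 genes tested and all 4 populations in 1 fit. The test called 995 genes, 7.31% of those tested. Of these 609 were higher in PD-1+ cells (4.47%) and 386 lower (2.83%), and every count of list members below is to be read beside these shares. The median log2 fold change was 2.13 among genes called higher, -1.39 among those called lower and -0.02 over all genes tested. Without PD-1+ 2 the count was 586, with 312 higher and 274 lower. The count rested on CLP 2: without that library 8 genes were called, 5 higher and 3 lower, against 518 without CLP 1 and 815 without PD-1+ 1. Among the 27 gene lists described below, 123 of 429 genes tested were called, and those still called without CLP 2 were Flt3, Cd34, Cx3cr1 and Ccl5. Of 106 named genes called, 67 were called without CLP 1, 5 without CLP 2, 91 without PD-1+ 1 and 81 without PD-1+ 2. Among those lost without CLP 1 were Tox, Fgf15, Arg1, Nmur1, Cxcr5, Bcl2 and Prg2, and among those lost without PD-1+ 2 were Hoxa9, Il6ra, Cd27, Ms4a1, Cd2, Myog and Igj. All 995 genes kept their direction when any 1 of the 4 libraries was left out and the gene was still tested. They had been called on these same libraries, so this is no separate support for the calls. On the deposited RPKM, limma called 735 higher and 1412 lower on log2(RPKM + 1), with a median log2 fold change of -0.26 over all genes; that fit differs from the edgeR fit in test, filter, scaling and pseudocount together. With the mature neutrophil and red cell lists removed before the fit, 1009 genes were called, among them 982 of the 984 calls outside those lists.

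Of the 9 genes of the sort gate, 4 differed in the direction of the gate, and all are given as a check of the labels and not as findings. Flt3 (NM_010229) stood at 92.1 and 157 RPKM in CLP and 6.55 and 5.54 in PD-1+ cells (log2 fold change -4.08, SE 0.39, edgeR adjusted p = 0.00596). Itgb7 (NM_013566), the β7 chain of the integrin used for capture, stood at 40.4 and 29.2 RPKM in CLP and 187 and 199.7 in PD-1+ cells (log2 fold change 2.74, SE 0.27, edgeR adjusted p = 0.00596), and its partner chain Itga4 (NM_010576) at 8.27 and 8.14 RPKM in CLP and 19.4 and 11.3 in PD-1+ cells (log2 fold change 1.16, SE 0.27, edgeR adjusted p = 0.0418). Pdcd1 itself had a log2 fold change of 7.83 (SE 1.20, edgeR adjusted p = 0.0146). In each of these 4 genes the PD-1+ libraries did not overlap the CLP libraries. For proteins gated as present on both populations, Il7r (NM_008372), which encodes CD127, stood at 26.9 and 33.7 RPKM in CLP and 45.2 and 13.5 in PD-1+ cells, and Kit (NM_001122733) at 28.5 and 31.5 RPKM in CLP and 29.1 and 8.21 in PD-1+ cells. Neither passed the test, and in both PD-1+ 2 lay below every CLP library while PD-1+ 1 did not. Il1rl1 (NM_001025602), which encodes ST2, absent by gate from PD-1+ cells, stood at 4.63 and 2.22 RPKM in CLP and 0.0678 and 4.45 in PD-1+ cells, so PD-1+ 2 lay within the range of CLP. Ly6a (NM_010738), a gene of Sca-1, by which CLP were gated, stood at 30.1 and 31.4 RPKM in CLP and 39.6 and 62.4 in PD-1+ cells, higher in both PD-1+ libraries, and did not pass (log2 fold change 1.02, edgeR adjusted p = 0.187).

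The transcription factors of ILC progenitors had the largest share of members called higher among the 27 lists. The lists were chosen with earlier results of these data known, so this order is a description and not a test. Of 13 measured members 11 rose and none fell, where 4.47% of all genes tested were called higher. The median log2 fold change was 4.42, against -0.02 over all genes. Gata3 (NM_008091), the zinc finger factor shared by ILCs and T cells, stood at 1.86 and 2.74 RPKM in CLP and 316 and 62.8 in PD-1+ cells (log2 fold change 6.59, SE 0.82, edgeR adjusted p = 0.0106). Tcf7 (NM_009331), the gene of the Wnt pathway factor TCF-1, stood at 0.546 and 1.11 RPKM in CLP and 238 and 45.9 in PD-1+ cells (log2 fold change 7.63, SE 0.89, edgeR adjusted p = 0.0104). Id2 (NM_010496) stood at 27.3 and 27.9 RPKM in CLP and 696 and 226 in PD-1+ cells (log2 fold change 4.30, SE 0.50, edgeR adjusted p = 0.00992), so it was the regulator with the most transcript already present in CLP. Zbtb16 rose by a log2 fold change of 4.42 (SE 0.80, edgeR adjusted p = 0.0218).

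The high mobility group factors rose as well. Tox (NM_145711), required for ILC and CD4 T cell development, stood at 3.64 and 6.59 RPKM in CLP and 106 and 23.2 in PD-1+ cells (log2 fold change 3.90, SE 0.74, edgeR adjusted p = 0.0244). Tox2 (NM_001098799), its close relative, stood at 0.167 and 1.10 RPKM in CLP and 201 and 39.2 in PD-1+ cells (log2 fold change 7.71, SE 1.13, edgeR adjusted p = 0.0134). Rora (NM_013646), the nuclear receptor RORα of ILC2 development, stood at 3.18 and 2.24 RPKM in CLP and 307 and 73.7 in PD-1+ cells (log2 fold change 6.36, SE 0.84, edgeR adjusted p = 0.0106). In all 3 genes PD-1+ 1 was the highest of the 4 libraries and PD-1+ 2 lay between it and CLP. Nfil3 (NM_017373), a basic leucine zipper factor that acts early in ILC commitment, was arranged differently: at 9.05 and 6.93 RPKM in CLP and 31.0 and 35.4 in PD-1+ cells (log2 fold change 2.33, SE 0.38, edgeR adjusted p = 0.0163), its PD-1+ libraries were close to each other. Ets1 (NM_011808) (1.78) and Maf (NM_001025577) (4.71) also rose on the log2 scale. Bcl11b (NM_001079883), a zinc finger factor that T cells and ILC2 share, had 3 reads in CLP and 21.7 and 5.17 RPKM in PD-1+ cells, a ratio of pooled rates of 1059 (exact Clopper-Pearson 95% interval 362 to 5140, counting error only); the ratio was 442 without PD-1+ 1 and 1686 without PD-1+ 2. The members that did not pass were Ikzf2 (NM_011770) (log2 fold change 3.25, edgeR adjusted p = 0.0798) and Runx3 (NM_019732) (log2 fold change 1.09, edgeR adjusted p = 0.203).

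Summed over the list, the regulators stood at 75.5 and 84.9 RPKM in CLP, 2075 and 575 in PD-1+ cells, 557 and 1007 in ChILP and 362 and 287 in CCR6+ cells. The sum in ChILP, which shares its enrichment route with CLP, thus exceeded that of every CLP library, and the sum in CCR6+ cells, which share the route of PD-1+ cells, was below that of both PD-1+ libraries. Gata3 stood at 51.1 and 117 RPKM in ChILP and 10.8 and 11.97 in CCR6+ cells. Bcl11b stood at 5.28 and 12.8 in ChILP and 0.791 and 0.546 in CCR6+ cells. Nfil3 stood at 9.92 and 15.1 RPKM in ChILP, above both CLP libraries and below both PD-1+ libraries. In CCR6+ cells it stood at 22.4 and 38.9, where it overlapped the PD-1+ libraries. The part of the enrichment route in the levels of these regulators was not tested. Of the list, 12 members were called without PD-1+ 2, 10 without PD-1+ 1, 9 without CLP 1 and 0 without CLP 2.

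**Figure D1:**
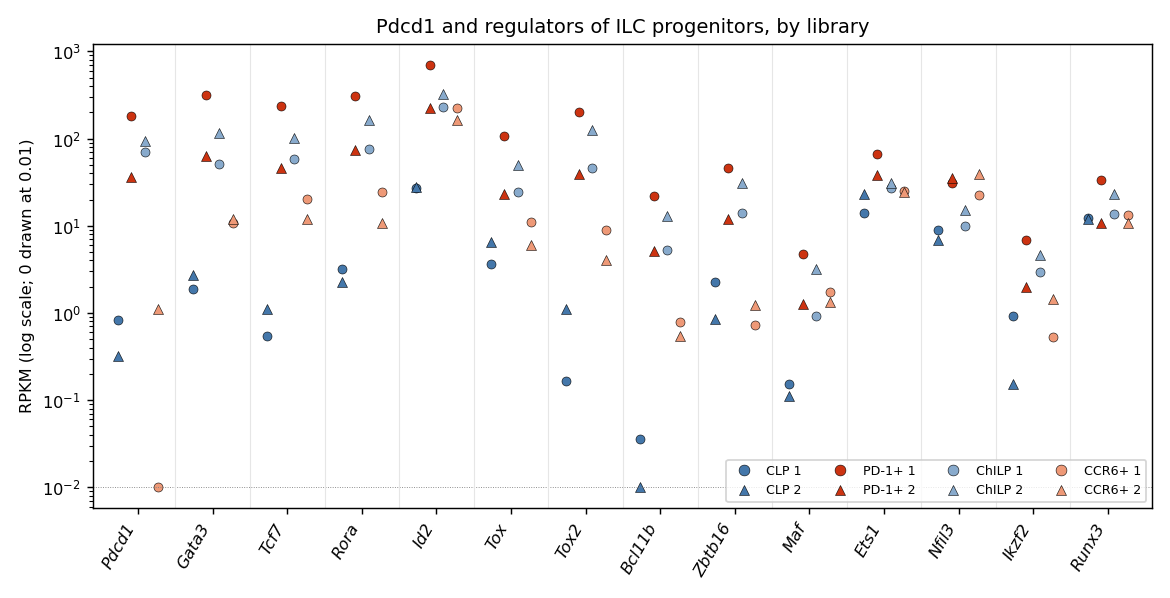
Levels of Pdcd1 and the ILC progenitor regulators in RPKM (log axis) in each of the 8 libraries, coloured by population, with 1 point per library. PD-1+ points lie above CLP points except for Runx3 in PD-1+ 2, and PD-1+ 1 lies above PD-1+ 2 except for Nfil3, at 31.0 and 35.4 RPKM.

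Promoter sequence is shown for Pdcd1, the gene that defines the population, and for Tcf7 (the window that holds a match) and Bcl11b, among the regulators with the largest rises, each with the 250 bases before the transcription start from the RefSeq table of build GRCm38.p6, on the gene's strand, 5′ to 3′. Capitals mark letters of a nuclear receptor motif, AGGTCA, read on the other strand as TGACCT (Pdcd1, Tcf7), or of a TCF/LEF motif, CTTTGA (Bcl11b). The windows are chr1:94052554-94052803, chr11:52282596-52282845 and chr12:108003415-108003664, all on the minus strand, and the matches begin 41, 13 and 89 bases before the start.
Pdcd1: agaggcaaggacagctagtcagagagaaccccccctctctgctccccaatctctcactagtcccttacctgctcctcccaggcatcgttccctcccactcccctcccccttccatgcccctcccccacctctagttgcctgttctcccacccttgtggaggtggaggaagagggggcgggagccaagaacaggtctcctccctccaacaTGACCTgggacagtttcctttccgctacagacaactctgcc
Tcf7: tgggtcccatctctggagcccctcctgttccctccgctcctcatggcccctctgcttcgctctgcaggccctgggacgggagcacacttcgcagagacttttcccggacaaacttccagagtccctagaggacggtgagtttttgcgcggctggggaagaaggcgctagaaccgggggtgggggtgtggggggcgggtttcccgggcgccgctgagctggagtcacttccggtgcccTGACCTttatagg
Bcl11b: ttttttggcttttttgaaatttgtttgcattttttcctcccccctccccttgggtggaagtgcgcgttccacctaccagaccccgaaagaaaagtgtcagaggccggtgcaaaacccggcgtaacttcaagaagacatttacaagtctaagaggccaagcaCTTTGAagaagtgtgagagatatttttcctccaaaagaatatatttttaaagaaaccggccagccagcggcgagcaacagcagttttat
Of the 11 regulators called, 7 had a promoter in the table, with 12 windows. On either strand AGATAA or TGATAA, the GATA letters searched, stood in 0 of the 12, CTTTGA in 3 and AGGTCA in 2. Other GATA spellings, such as AGATAG, which stands in the Rora window, were not searched, so the 0 does not cover every GATA motif. The windows of a gene overlap in part: 2 of the 3 with CTTTGA are Tox2 windows whose starts differ by 1 base and hold the same match. Of all 32851 windows of the same length 16.6%, 13.8% and 14% held the searched GATA letters, CTTTGA and AGGTCA. A match of letters is a description of the window and not a bound site.

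Genes of the mature ILC fates were called beside those of the progenitor. In the ILC2 list 4 of 12 members tested rose and none fell (median log2 fold change 3.32). Rxrg (NM_009107), the γ form of the retinoid X receptor, stood at 0.219 and 0.0641 RPKM in CLP and 98.1 and 13.4 in PD-1+ cells (log2 fold change 8.89, SE 1.18, edgeR adjusted p = 0.0106). Arg1 (NM_007482), the arginase of resting ILC2, stood at 0.823 and 1.34 RPKM in CLP and 112 and 20.7 in PD-1+ cells (log2 fold change 6.15, SE 0.94, edgeR adjusted p = 0.0142). Nmur1 (NM_010341), the neuromedin U receptor, had 1 read in CLP and 17.2 and 0.960 RPKM in PD-1+ cells, a ratio of 324 (58 to 12841 by the same exact interval); it was 37.8 without PD-1+ 1 and 615 without PD-1+ 2. Il17rb (NM_019583), the IL-25 receptor of ILC2, stood at 5.26 and 4.51 RPKM in CLP and 61.6 and 11.3 in PD-1+ cells and did not pass (edgeR adjusted p = 0.0522). Nor did Icos (NM_017480), a costimulatory receptor, at 1.01 and 5.82 RPKM in CLP and 40.002 and 10.1 in PD-1+ cells (edgeR adjusted p = 0.0756). The effector cytokines Il5 and Il13 had too few reads to be tested, with none in PD-1+ cells. Each of the called ILC2 genes was also above every CLP library in both ChILP libraries: Rxrg stood at 27.6 and 43.9 RPKM there and at 0.0439 and 0 in CCR6+ cells. Without CLP 1 the list had 2 calls and without CLP 2 it had 0.

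LTi and ILC3 genes rose in part, in cells that were sorted without CCR6. Of 13 members tested 4 rose and none fell, with a median of 2.97 (2.94 with genes at 0 held at their bound). Cxcr5 (NM_007551), a homing receptor for lymphoid follicles, stood at 1.79 and 1.02 RPKM in CLP and 63.0 and 10.5 in PD-1+ cells (log2 fold change 4.93, SE 0.92, edgeR adjusted p = 0.0234). Ltb (NM_008518), lymphotoxin β, stood at 39.6 and 49.4 RPKM in CLP and 494 and 256 in PD-1+ cells (log2 fold change 3.33, SE 0.38, edgeR adjusted p = 0.00992), with 149 and 262 in ChILP and 363 and 267 in CCR6+ cells. Nrp1 (NM_008737) also rose (2.57 on the log2 scale), at 1.66 and 1.26 RPKM in CLP and 7.32 and 7.10 in PD-1+ cells. Nrp1 stood at 2.75 and 1.93 in ChILP and 9.91 and 13.2 in CCR6+ cells. The receptor Il23r (NM_144548) stood at 0.387 and 0.223 RPKM in PD-1+ cells and at 3.05 and 1.27 in CCR6+ cells, and Il22 and Il17a had no read in any library. Without CLP 2 the list had 0 calls.

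Genes of ILC1 and natural killer (NK) cells rose in 7 of 20 members tested, with none lower and a median of 2.85. Ccl5 (NM_013653), a chemokine of cytotoxic cells, was the most abundant of them, at 16.7 and 7.08 RPKM in CLP and 574 and 273 in PD-1+ cells (log2 fold change 5.40, SE 0.54, edgeR adjusted p = 0.00596), with 205 and 289 in ChILP and 161 and 178 in CCR6+ cells. Il2rb (NM_008368), the receptor chain for IL-2 and IL-15, stood at 4.82 and 2.43 RPKM in CLP and 44.3 and 26.6 in PD-1+ cells (log2 fold change 3.53, SE 0.42, edgeR adjusted p = 0.0106), with 16.5 and 18.5 in ChILP and 33.1 and 26.0 in CCR6+ cells. Gzma (NM_010370), a granzyme of killer cells, stood at 1.70 and 0.623 RPKM in CLP and 29.1 and 17.7 in PD-1+ cells (log2 fold change 4.57, SE 0.77, edgeR adjusted p = 0.0177), with 4.86 and 2.21 in ChILP and 15.2 and 12.2 in CCR6+ cells. Klrk1 (NM_033078), the activating receptor NKG2D, stood at 1.09 and 1.21 RPKM in CLP and 5.13 and 5.49 in PD-1+ cells (log2 fold change 2.48, SE 0.42, edgeR adjusted p = 0.0176), with 2.08 and 2.16 in ChILP and 5.88 and 6.71 in CCR6+ cells. In these 3 genes both magnetically captured populations lay above both lineage-depleted ones, as the mature cell transcripts did, while Ccl5 was high in ChILP too. Tbx21 (NM_019507), which encodes T-bet, stood lower, at 0.769 and 0.910 RPKM in CLP and 7.74 and 2.85 in PD-1+ cells (log2 fold change 2.89, SE 0.58, edgeR adjusted p = 0.0287). Its relative Eomes (NM_010136), which marks NK cells, stood at 0.201 and 0 RPKM in CLP and 2.89 and 0.729 in PD-1+ cells and did not pass (log2 fold change 4.35, edgeR adjusted p = 0.266). The other called members were Cxcr6 (NM_030712) and Cd160 (NM_018767), the last with no read in CLP and at least 35.8-fold higher than 3 reads over that group (11.5-fold without PD-1+ 2 and 59.7-fold without PD-1+ 1). With CLP 1 left out such bounds are 1.66 times smaller for every gene with no read in CLP, and with CLP 2 left out 2.51 times, because fewer reads were counted. Without CLP 1 the list had 3 calls, and without CLP 2 only Ccl5.

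T lineage and antigen receptor signalling genes rose in 9 of 19 members tested, none fell, and the median was 2.09. Their levels followed 2 arrangements. Thy1 (NM_009382), a surface protein of T cells and ILCs, stood at 0.593 and 0.473 RPKM in CLP and 36.996 and 13.3 in PD-1+ cells (log2 fold change 5.80, SE 0.72, edgeR adjusted p = 0.0106). The kinase Txk (NM_001122754) stood at 0.290 and 0 RPKM in CLP and 33.6 and 6.00 in PD-1+ cells (log2 fold change 7.41, edgeR adjusted p = 0.0184). The adaptor Skap1 (NM_001033186) rose too, from under 1 RPKM in each CLP library. In these the first PD-1+ library was the higher, and ChILP stood above CLP, for Thy1 at 8.99 and 21.1. Cd3g (NM_009850), a chain of the T cell receptor complex, stood at 0.731 and 0 RPKM in CLP and 11.5 and 14.9 in PD-1+ cells, 2.19 and 2.47 in ChILP and 8.87 and 15.1 in CCR6+ cells (log2 fold change 5.46, edgeR adjusted p = 0.0433). Cd2 (NM_013486), an adhesion receptor of lymphocytes, stood at 0.327 and 0 RPKM in CLP and 7.70 and 23.8 in PD-1+ cells, 0.670 and 0 in ChILP and 31.1 and 23.99 in CCR6+ cells (log2 fold change 6.97, edgeR adjusted p = 0.0369). For those 2 genes the second PD-1+ library was the higher and CCR6+ libraries stood above both ChILP libraries. Themis (NM_178666) rose too, as did the adaptors Fyb (NM_011815) (1.46) and Lcp2 (NM_010696) (1.99). The kinases Lck (NM_010693) and Zap70 (NM_009539) and the adaptor Lat (NM_010689) did not pass, and Lck stood at 29.4 and 68.4 RPKM in CLP and 114 and 36.2 in PD-1+ cells. The list had 6 calls without CLP 1 or without PD-1+ 2 and 0 without CLP 2.

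Notch signalling separates T cell and ILC fates from B cells in lymphoid progenitors. Of 14 measured genes of the pathway 5 rose and 1 fell, with a median of 0.80; Tcf7 and Gata3 are among the 5. Notch1 (NM_008714), the receptor of T cell commitment, stood at 29.1 and 40.003 RPKM in CLP and 7.05 and 8.19 in PD-1+ cells (log2 fold change -1.89, SE 0.32, edgeR adjusted p = 0.0189). Notch2 (NM_010928) stood at 8.77 and 7.73 RPKM in CLP and 14.2 and 13.7 in PD-1+ cells (log2 fold change 1.02, SE 0.20, edgeR adjusted p = 0.0257), so the 2 receptors moved in opposite directions. The ligand Dll1 (NM_007865) had 1 read in CLP and 13.2 and 4.29 RPKM in PD-1+ cells, a ratio of 898 (161 to 35512 by the exact interval; 476 without PD-1+ 1). Dtx1 (NM_008052), a Notch target, had no read in CLP or ChILP and 1.72 and 3.89 RPKM in PD-1+ cells, with 3.07 and 3.31 in CCR6+ cells, at least 109.7-fold above 3 reads over the CLP group (62.7-fold without PD-1+ 2). Hes1 (NM_008235), a direct Notch target, stood at 9.40 and 14.9 RPKM in CLP and 74.7 and 18.7 in PD-1+ cells and did not pass (log2 fold change 2.19, edgeR adjusted p = 0.131). Without CLP 2 the list had 0 calls; 2 genes fell without PD-1+ 2 and none without PD-1+ 1.

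Genes of homing and adhesion rose in 9 of 23 members tested, none fell, and the median was 1.36. The chemokine receptor gene Ccr8 (NM_007720) was without a read in CLP and stood at 28.9 and 7.56 RPKM in PD-1+ cells, at least 209.7-fold above 3 reads over the CLP group (94.3-fold without PD-1+ 1 and 327-fold without PD-1+ 2). Itgal (NM_001253872), the α chain of LFA-1, stood at 14.1 and 17.995 RPKM in CLP and 55.6 and 38.4 in PD-1+ cells (log2 fold change 1.82, SE 0.27, edgeR adjusted p = 0.0132). Selplg (NM_009151), the ligand of P-selectin, stood at 179 and 269.8 RPKM in CLP and 538 and 411 in PD-1+ cells (log2 fold change 1.36, SE 0.26, edgeR adjusted p = 0.0244). The 4 further genes below are abundant on myeloid cells and were higher in PD-1+ and CCR6+ cells than in ChILP. Cx3cr1 (NM_009987), the fractalkine receptor, stood at 6.27 and 3.59 RPKM in CLP and 42.5 and 36.9 in PD-1+ cells, 8.66 and 7.59 in ChILP and 45.2 and 47.1 in CCR6+ cells (log2 fold change 3.26, SE 0.31, edgeR adjusted p = 0.00596). Ccr2 (NM_009915) stood at 13.05 and 10.8 RPKM in CLP and 63.6 and 91.3 in PD-1+ cells, and Itgam (NM_001082960) and Itgb2 (NM_008404) of the complement receptor CR3 rose as well. The list had 6 calls without CLP 1 and, without CLP 2, Cx3cr1 alone.

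Among 27 cytokine receptor genes tested 4 rose and 1, Flt3, fell (median 0.86), against 4.47% higher and 2.83% lower over all genes. Il2rg (NM_013563), the common γ chain, stood at 48.2 and 102 RPKM in CLP and 204 and 129 in PD-1+ cells (log2 fold change 1.43, SE 0.34, edgeR adjusted p = 0.0469), and Il2rb is described above. Il6ra (NM_010559), the IL-6 receptor, stood at 12.8 and 5.66 RPKM in CLP and 31.9 and 50.5 in PD-1+ cells, and at 14.1 and 14.4 in ChILP (log2 fold change 2.42, edgeR adjusted p = 0.0223). Csf1r (NM_001037859), the receptor of macrophage colony stimulating factor, stood at 30.9 and 24.9 RPKM in CLP and 78.8 and 113 in PD-1+ cells, and at 26.4 and 24.8 in ChILP (log2 fold change 2.06, edgeR adjusted p = 0.0106). Il18r1 (NM_008365), the IL-18 receptor, stood at 0.180 and 1.08 RPKM in CLP and 10.3 and 4.23 in PD-1+ cells and did not pass (log2 fold change 3.78, edgeR adjusted p = 0.0564). Of 18 inhibitory and costimulatory receptors, 3 rose (Pdcd1, Cd160 and Tnfrsf25 (NM_033042), the receptor DR3) and 1 fell. The one that fell, Cd27 (NM_001033126), stood at 77.4 and 155 RPKM in CLP and 43.2 and 18.4 in PD-1+ cells (log2 fold change -1.65, SE 0.40, edgeR adjusted p = 0.0480). Ctla4 (NM_009843), another inhibitory receptor of T cells, stood at 0.823 and 2.26 RPKM in CLP and 0.641 and 0.924 in PD-1+ cells and did not pass (log2 fold change -0.66, edgeR adjusted p = 0.862). Of the costimulatory list only Pdcd1 was called without PD-1+ 2, and 1 rise and 1 fall were called without CLP 1. None was called without CLP 2, nor any cytokine receptor but Flt3, and 3 cytokine receptors fell without PD-1+ 2.

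Genes of antigen receptor rearrangement were among those that fell most. Dntt (NM_009345), the DNA polymerase that adds bases at antigen receptor junctions, stood at 818 and 1449 RPKM in CLP and 46.1 and 14.8 in PD-1+ cells (log2 fold change -4.96, SE 0.65, edgeR adjusted p = 0.0106). Rag2 (NM_009020), a subunit of the recombinase, stood at 18.4 and 29.7 RPKM in CLP and 0.385 and 0.290 in PD-1+ cells (log2 fold change -5.87, SE 0.89, edgeR adjusted p = 0.0142). Its partner Rag1 (NM_009019) stood at 5.21 and 5.85 RPKM in CLP and 0.310 and 0 in PD-1+ cells but did not pass (log2 fold change -4.95, edgeR adjusted p = 0.124). Xrcc6 (NM_010247), which encodes the Ku70 end-joining protein, fell from 132 and 212 to 28.9 and 18.7 RPKM (log2 fold change -2.58, SE 0.29, edgeR adjusted p = 0.00992), and no member of the 12 recombination genes tested rose (3 fell, median -0.71). Dntt stood at 56.9 and 70.5 RPKM in ChILP and 4.22 and 11.3 in CCR6+ cells. None of the 12 was called without CLP 2, and 5 were called without PD-1+ 1.

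Genes of stem and multipotent progenitors fell in 4 of 18 members tested and none rose, with a median of -1.37. Cd34 (NM_001111059), the progenitor surface sialomucin, stood at 90.8 and 167 RPKM in CLP and 8.98 and 6.15 in PD-1+ cells (log2 fold change -3.81, SE 0.32, edgeR adjusted p = 0.00596), and at 58.4 and 59.8 in ChILP. Hoxa9 (NM_010456), a homeobox factor of early progenitors, stood at 7.36 and 15.4 RPKM in CLP and 0.696 and 0.488 in PD-1+ cells (log2 fold change -3.97, SE 0.66, edgeR adjusted p = 0.0171). Cd93 (NM_010740) fell as well (-1.94 on the log2 scale), as did Hoxa7 (NM_010455), which lies at the threshold (edgeR adjusted p = 0.04996). Meis1 (NM_001193271), the cofactor of Hoxa9, stood at 13.8 and 13.05 RPKM in CLP and 4.56 and 3.83 in PD-1+ cells and did not pass (log2 fold change -1.42, edgeR adjusted p = 0.0635). The list had 2 calls without PD-1+ 2, and Cd34 was its only call without CLP 2.

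B lineage genes did not move as 1 group. Of 18 tested, 2 rose and 1 fell, against 4.47% higher and 2.83% lower over all genes, with a median of -0.83. Blnk (NM_008528), the B cell linker adaptor, stood at 36.9 and 71.6 RPKM in CLP and 3.48 and 11.97 in PD-1+ cells (log2 fold change -2.48, SE 0.59, edgeR adjusted p = 0.0461). Cd22 (NM_001043317), a receptor of mature B cells, stood at 0.890 and 0.267 RPKM in CLP and 5.22 and 9.52 in PD-1+ cells, 0.241 and 1.41 in ChILP and 12.9 and 10.7 in CCR6+ cells (log2 fold change 3.96, SE 0.92, edgeR adjusted p = 0.0420). Ebf1 (NM_007897), the factor of B cell commitment, stood at 10.5 and 16.6 RPKM in CLP and 3.16 and 4.50 in PD-1+ cells and did not pass (log2 fold change -1.52, edgeR adjusted p = 0.528). Without PD-1+ 2 the 2 rises were lost and 3 genes fell, without CLP 1 only 1 rise was called, without PD-1+ 1 no fall was, and without CLP 2 no call was made. Of 12 genes of plasmacytoid and dendritic cells, Cox6a2 (NM_009943), a cytochrome c oxidase subunit, fell from 103 and 162 to 23.6 and 29.7 RPKM. Batf3 (NM_030060), a factor of cross-presenting dendritic cells, rose (0.788 and 0 RPKM in CLP and 36.2 and 16.8 in PD-1+ cells, log2 fold change 6.38, edgeR adjusted p = 0.0247); neither was called without CLP 2.

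Outside the lists, the largest falls were found in genes of mixed function. Gm5111 (NM_183309), a predicted gene, stood at 25.01 and 56.99 RPKM in CLP and had no read in any of the other 6 libraries, so it was at least 353-fold lower in PD-1+ cells, counted against 3 reads over that group. Myog (NM_031189), the muscle factor myogenin, stood at 6.88 and 18.1 in CLP and had no read in PD-1+ cells, at least 167-fold lower. Without CLP 2 these bounds were 215 and 90.8, and without CLP 1 they were 444 and 217; with either PD-1+ library left out they are about 2 times smaller, because fewer reads were counted. Kcng1 (NM_001081134), a potassium channel subunit, stood at 29.7 and 43.4 RPKM in CLP and had 1 read in PD-1+ cells, a ratio of pooled rates of 2199 in favour of CLP (394 to 86909 by the exact interval). Il12a (NM_008351), the p35 subunit of IL-12, stood at 78.0 and 153 RPKM in CLP and 4.44 and 2.81 in PD-1+ cells (log2 fold change -4.72, SE 0.52, edgeR adjusted p = 0.00992). Egfl7 (NM_178444), a secreted protein whose gene hosts a microRNA, stood at 139 and 264 RPKM in CLP and 7.38 and 9.97 in PD-1+ cells (log2 fold change -4.23, SE 0.40, edgeR adjusted p = 0.00596) and kept its call when any 1 of the 4 libraries was left out. The other genes named by the same rule were AI848285, Ccdc135, 1700048O20Rik, C85492, Emp1 and Mmp11, with 9.73 to 17.2 RPKM for Mmp11 and up to 60.7 for AI848285 in CLP, and under 1 RPKM in each PD-1+ library. Without CLP 2 only Egfl7 and Flt3 of these 14 remained called.

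**Figure D2:**
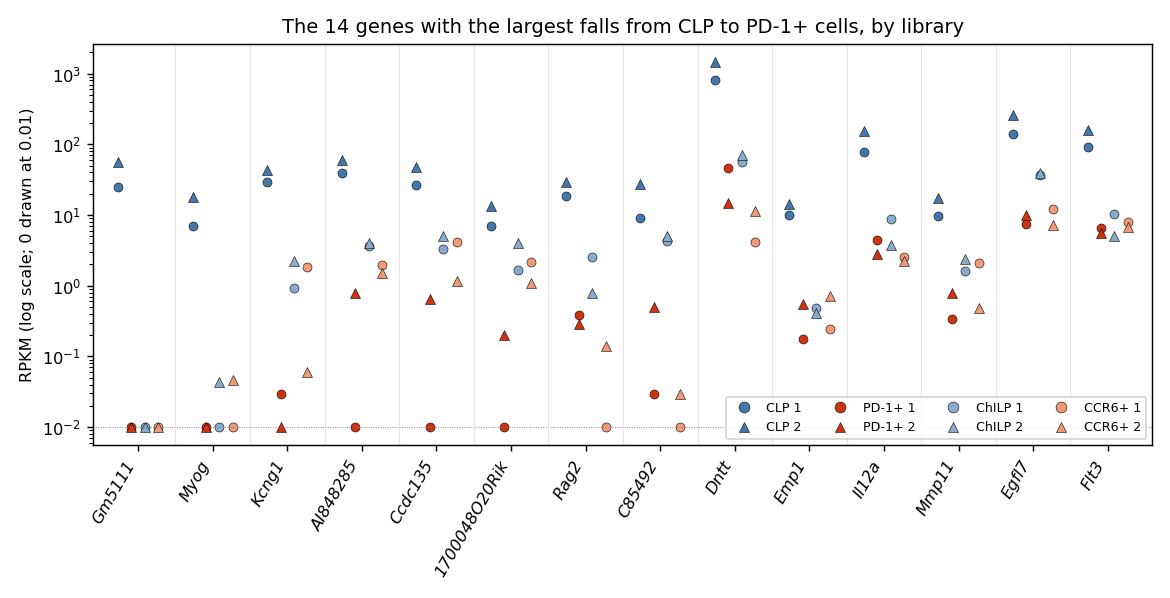
Levels in RPKM (log axis, 0 drawn at 0.01) of the 14 named genes with the largest falls from CLP to PD-1+ cells, with 1 point per library, coloured by population. CLP points (blue) lie above PD-1+ points (red) throughout, as the rule that named these genes required. Levels run from 818 and 1449 against 46.1 and 14.8 RPKM for Dntt to 6.88 and 18.1 against 0 for Myog.

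Of the 14 genes with the largest rises outside the mature neutrophil, red cell, macrophage and eosinophil lists, most have been described. Fgf15 (NM_008003), a secreted growth factor known from gut and embryo, had no read in CLP or CCR6+ cells and stood at 54.1 and 3.68 RPKM in PD-1+ cells and 9.24 and 10.3 in ChILP. Its rise was at least 511-fold against 3 reads over the CLP group, 71.7-fold without PD-1+ 1 and 957-fold without PD-1+ 2. Apol11a (NM_001177533), an apolipoprotein L gene, had no read in CLP or ChILP. It stood at 11.9 and 23.3 RPKM in PD-1+ cells and at 17.5 and 20.5 in CCR6+ cells (at least 208-fold, and 131-fold without PD-1+ 2). Ms4a1 and Fcer2a, genes of mature B cell surface proteins, were likewise higher in each PD-1+ and CCR6+ library than in any CLP or ChILP library. Ms4a1 (NM_007641), which encodes CD20, stood at 0.136 and 0 RPKM in CLP and 9.53 and 20.9 in PD-1+ cells, 1.41 and 0 in ChILP and 19.0 and 29.6 in CCR6+ cells. Fcer2a (NM_013517), which encodes CD23, stood at 0.125 and 0 RPKM in CLP and 10.04 and 22.5 in PD-1+ cells, 0.391 and 0 in ChILP and 26.1 and 20.8 in CCR6+ cells. Without CLP 2 none of these was called.

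The called genes of growth and survival were 3 helicase subunits, which fell, and Bcl2, Bcl2l1 and Stat3, which rose. Over all genes tested 4.47% were called higher and 2.83% lower, so 1 rise among 15 SOCS and STAT genes is near that share. Of 30 proliferation genes 3 fell, none rose, and the median was -0.23. The 3 are subunits of the replicative helicase: Mcm6 (NM_008567) stood at 240.4 and 297 RPKM in CLP and 115 and 101 in PD-1+ cells (log2 fold change -1.04, SE 0.17, edgeR adjusted p = 0.0162), and Mcm5 (NM_008566) (-0.97) and Mcm3 (NM_008563) (-0.77) fell by less. Top2a (NM_011623), a mitotic topoisomerase, stood at 57.4 and 49.6 RPKM in CLP and 38.1 and 46.8 in PD-1+ cells and did not pass. Mki67 (NM_001081117), which marks dividing cells, stood the other way at 22.4 and 15.4 RPKM in CLP and 32.4 and 34.7 in PD-1+ cells, without overlap, and did not pass either (log2 fold change 1.09, edgeR adjusted p = 0.0522). Among 14 genes of survival and death 2 rose and none fell (median 0.97). Bcl2 (NM_009741), which protects lymphocytes from death, stood at 9.74 and 9.74 RPKM in CLP and 67.6 and 23.7 in PD-1+ cells (log2 fold change 2.47, SE 0.48, edgeR adjusted p = 0.0265), and at 27.7 and 46.2 in ChILP and 13.5 and 8.26 in CCR6+ cells. Bcl2l1 (NM_009743), which encodes Bcl-xL and is abundant in red cell precursors, stood at 25.5 and 16.1 RPKM in CLP and 91.8 and 145 in PD-1+ cells and 116 and 134 in CCR6+ cells (log2 fold change 2.78, SE 0.48, edgeR adjusted p = 0.0189). Of 15 SOCS and STAT genes of cytokine signalling only Stat3 (NM_213659) passed, at 17.8 and 27.1 RPKM in CLP and 44.4 and 35.3 in PD-1+ cells (log2 fold change 1.10, SE 0.24, edgeR adjusted p = 0.0339), and it was not called without CLP 1 or by limma on log2(RPKM + 1). None of the genes of these 3 lists was called without CLP 2, while of the proliferation genes 1 fell without PD-1+ 2, 2 fell without PD-1+ 1, and 1 rose and 1 fell without CLP 1.

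**Figure D3:**
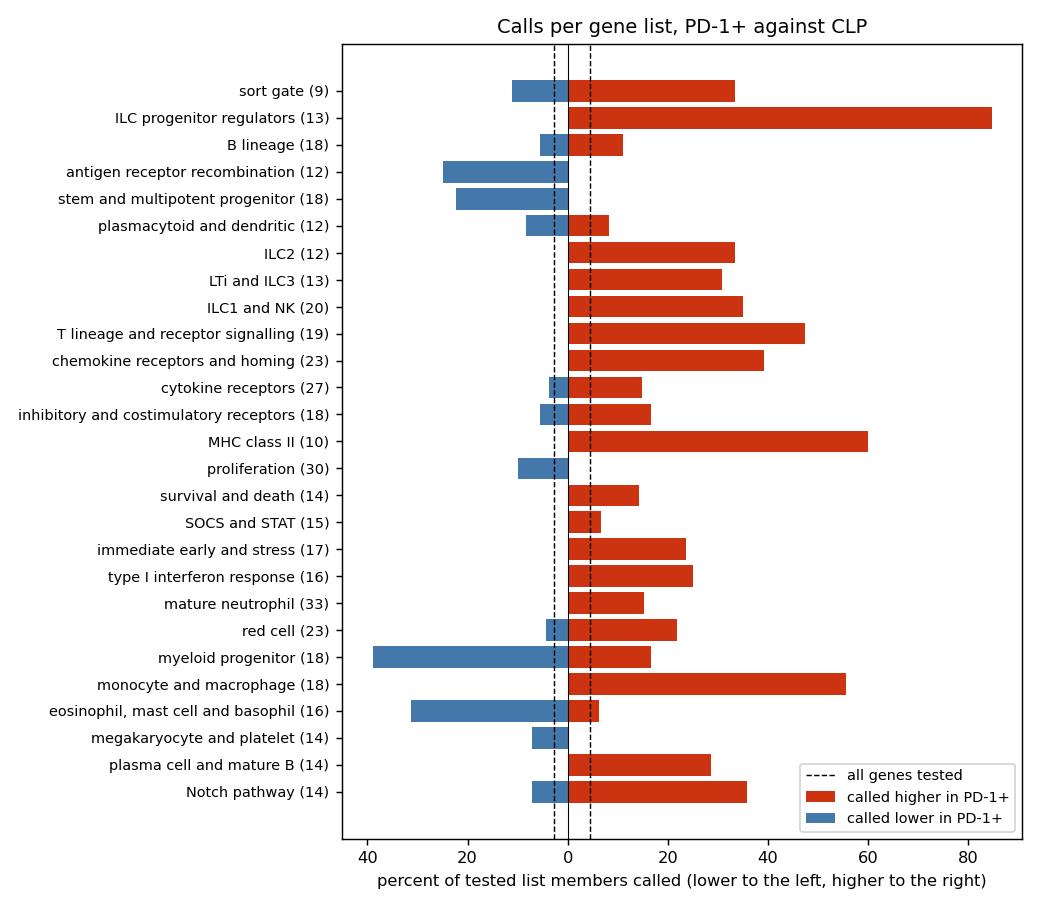
Percent of the tested members of each gene list (number tested in brackets) that were called higher, to the right, or lower, to the left, in PD-1+ cells than in CLP; dashed lines mark all genes tested. The ILC progenitor regulators have 11 of 13 members higher and none lower, against 4.47% higher and 2.83% lower over all genes tested. The lists were chosen with earlier results of these data known.

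Transcripts of mature myeloid and red cells were higher in the magnetically captured PD-1+ cells. Of 33 neutrophil genes tested 5 rose and none fell, but 21 were higher at an unadjusted p under 0.05, against 12.8% of all genes, and the median was 2.80. Lyz2 (NM_017372), the lysozyme that granulocytes and macrophages make, stood at 866 and 356 RPKM in CLP and 6387 and 12901 in PD-1+ cells and at 9770.3 and 14677 in CCR6+ cells (log2 fold change 4.25, SE 0.68, edgeR adjusted p = 0.0159). S100a8 (NM_013650), a calcium-binding protein that fills neutrophils, stood at 2026 and 500.1 RPKM in CLP and 4689 and 10076 in PD-1+ cells and did not pass (log2 fold change 2.80, edgeR adjusted p = 0.114); its CLP libraries differed from each other by a larger fold than its PD-1+ libraries. The summed level of the list was 5799 and 1459.6 RPKM in CLP, 17517 and 35358 in PD-1+, 7478 and 1841 in ChILP and 23723 and 38146 in CCR6+ cells. The list had 9 calls without PD-1+ 1, 7 without CLP 1, 3 without PD-1+ 2 and 0 without CLP 2.

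The red cell list had 5 of 23 members higher and 1 lower, 18 higher at an unadjusted p under 0.05, and a median of 2.14. Bpgm (NM_007563), which makes the bisphosphoglycerate of red cells, stood at 27.2 and 12.7 RPKM in CLP and 160.2 and 254 in PD-1+ cells (log2 fold change 3.64, SE 0.53, edgeR adjusted p = 0.0126). Hba-a1 (NM_008218), an α globin whose count is uncertain because a near-identical copy exists, had levels of 3112 and 548 RPKM in CLP and 21938 and 25445 in PD-1+ cells and did not pass (log2 fold change 3.92, edgeR adjusted p = 0.0671). Car1 (NM_009799), a carbonic anhydrase of early erythroid precursors, went the other way, at 449 and 422 RPKM in CLP and 87.8 and 104 in PD-1+ cells (log2 fold change -1.91, SE 0.23, edgeR adjusted p = 0.0106). There were 9 rises without CLP 1, 1 without PD-1+ 2, and no call without CLP 2.

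By count, macrophage genes were the list with the most rises outside the regulators: 10 of 18 members rose and none fell (median 2.86). By share of members called higher, class II genes (6 of 10) came before them. C1qc (NM_007574), a complement component of macrophages, stood at 26.95 and 10.6 RPKM in CLP and 159.7 and 190.1 in PD-1+ cells (log2 fold change 3.47, SE 0.67, edgeR adjusted p = 0.0254), 36.8 and 10.8 in ChILP and 295 and 195 in CCR6+ cells. Ctss (NM_021281), a lysosomal protease of antigen-presenting cells, stood at 61.6 and 63.6 RPKM in CLP and 287 and 586 in PD-1+ cells (log2 fold change 3.10, SE 0.39, edgeR adjusted p = 0.0106), 61.6 and 50.2 in ChILP and 414 and 588 in CCR6+ cells. Without PD-1+ 2 the list had 5 calls and without CLP 2 it had 0. The list's sum was 936 and 669.5 RPKM in CLP and 2239 and 4107 in PD-1+ cells.

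Early granulocyte genes ran in reverse. Of 18 myeloid progenitor genes 7 fell, and 3 that also mark macrophages, Csf1r, Cd68 (NM_009853) and Ly86 (NM_010745), rose; the median, -0.26, was 0.15 without PD-1+ 1. Mpo (NM_010824), myeloperoxidase, stood at 2816 and 3121 RPKM in CLP and 201 and 440.0 in PD-1+ cells (log2 fold change -2.91, SE 0.43, edgeR adjusted p = 0.0137), 4218 and 3380.1 in ChILP and 328 and 529.8 in CCR6+ cells. Elane (NM_015779), neutrophil elastase, stood at 2522 and 2323 RPKM in CLP and 331 and 572 in PD-1+ cells (log2 fold change -2.14, SE 0.33, edgeR adjusted p = 0.0144). The proteases Prtn3 (NM_011178) and Ctsg (NM_007800) fell likewise. Eosinophil genes fell in 5 of 16 members of the eosinophil, mast cell and basophil list: Prg2 (NM_008920), major basic protein, stood at 7859 and 6092 RPKM in CLP and 776 and 1513 in PD-1+ cells (log2 fold change -2.32, SE 0.50, edgeR adjusted p = 0.0336), and at 12880.5 and 5418 in ChILP. Cpa3 (NM_007753), a mast cell carboxypeptidase, was the only member to rise, at 30.4 and 31.7 RPKM in CLP and 108 and 68.8 in PD-1+ cells (log2 fold change 1.76, SE 0.31, edgeR adjusted p = 0.0197). CLP and ChILP were thus high in early granulocyte and eosinophil transcripts, and PD-1+ and CCR6+ cells in late neutrophil, macrophage and red cell transcripts. Among 14 megakaryocyte and platelet genes none rose and 1 fell (median -0.98), where 2.83% of all genes tested were called lower. The myeloid progenitor falls numbered 2 without CLP 1 and 3 without PD-1+ 1; the eosinophil falls numbered 0 without either library and 3 without PD-1+ 2. Without CLP 2 neither list had a call, and the megakaryocyte list had none without any 1 of the 4 libraries.

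**Figure D4:**
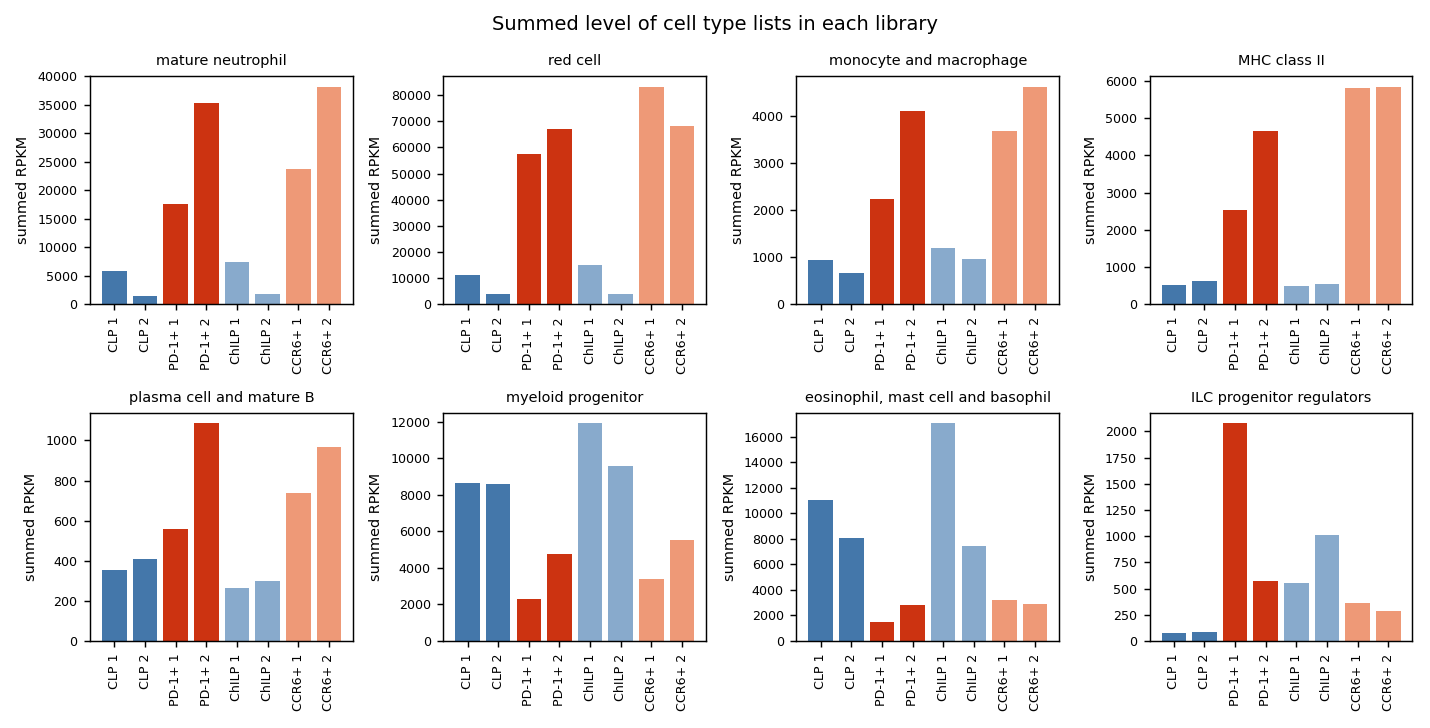
Summed level in RPKM of the marker lists of mature and early marrow cells in each of the 8 libraries, coloured by population. The neutrophil sum is 1459.6 to 7478 RPKM in CLP and ChILP libraries and 17517 to 38145.5 in the magnetically captured ones, while the myeloid progenitor sum is arranged in reverse.

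The summed levels of class II histocompatibility, mature B cell, immediate early and interferon genes were also higher in every PD-1+ and CCR6+ library than in any CLP or ChILP library. Of 10 class II genes 6 rose and none fell (median 3.43). Cd74 (NM_001042605), the invariant chain, stood at 93.1 and 54.2 RPKM in CLP and 1035 and 2099.5 in PD-1+ cells (log2 fold change 4.69, SE 0.49, edgeR adjusted p = 0.00760), 115 and 158 in ChILP and 2454 and 2682 in CCR6+ cells. H2-Ab1 (NM_207105), the β chain of I-A, stood at 71.1 and 73.1 RPKM in CLP and 631 and 1177 in PD-1+ cells (log2 fold change 3.94, SE 0.34, edgeR adjusted p = 0.00596). Of 14 plasma cell and mature B genes 4 rose (median 2.18). Igj (NM_152839), the joining chain of secreted antibodies, stood at 35.8 and 48.1 RPKM in CLP and 242 and 603 in PD-1+ cells (log2 fold change 3.64, SE 0.74, edgeR adjusted p = 0.0290), 8.26 and 33.6 in ChILP and 297 and 543 in CCR6+ cells. Without PD-1+ 2 there were 4 class II calls and 1 mature B call, and without CLP 2 there was none; without CLP 1 the mature B list had 1.

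Immediate early genes answer handling and receptor signals within minutes, and 4 of 17 rose with none lower (median 1.47). Fos (NM_010234) stood at 209.5 and 178 RPKM in CLP and 1061 and 1589 in PD-1+ cells (log2 fold change 3.05, SE 0.44, edgeR adjusted p = 0.0126), 337 and 166 in ChILP and 1014 and 1705 in CCR6+ cells; Jun (NM_010591), Junb (NM_008416) and Fosb (NM_008036) rose as well. None of the 17 was higher in PD-1+ 1 than in PD-1+ 2. Of 16 interferon response genes 4 rose, none fell, and the median was 1.33. Isg15 (NM_015783), a ubiquitin-like protein, stood at 21.0 and 12.7 RPKM in CLP and 90.1 and 85.8 in PD-1+ cells (log2 fold change 2.64, SE 0.42, edgeR adjusted p = 0.0156), and Ifit3 (NM_010501) (3.07), Oasl2 (NM_011854) (2.18) and Irf7 (NM_016850) (1.81) rose with it. Neither list had a call without CLP 2, and each had 1 without CLP 1; without PD-1+ 2 only 1 immediate early gene was called.

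The PD-1+ libraries also differed from each other in the regulators and in the mature cell lists. Of the 13 regulators 12 were higher in PD-1+ 1 than in PD-1+ 2, with a median log2 ratio of 1.96, while 1 of the 33 neutrophil genes was higher in PD-1+ 1, with a median of -1.01. Pdcd1 was 4.98-fold higher in PD-1+ 1, Gata3 5.03-fold and Tcf7 5.19-fold. Id2 was 3.09-fold higher. The red cell and macrophage lists had 1 member each higher in PD-1+ 1, and class II genes 2 of 10. Over all genes 53.7% were higher in PD-1+ 1, with 38.1% of the genes called higher and 63.5% of those called lower. The 2 libraries held 10667762 and 12153158 reads, and the ratios are of RPKM, which is scaled to the library total. The part of the mature cell transcripts in the lower regulator levels of PD-1+ 2 was not tested.

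**Figure D5:**
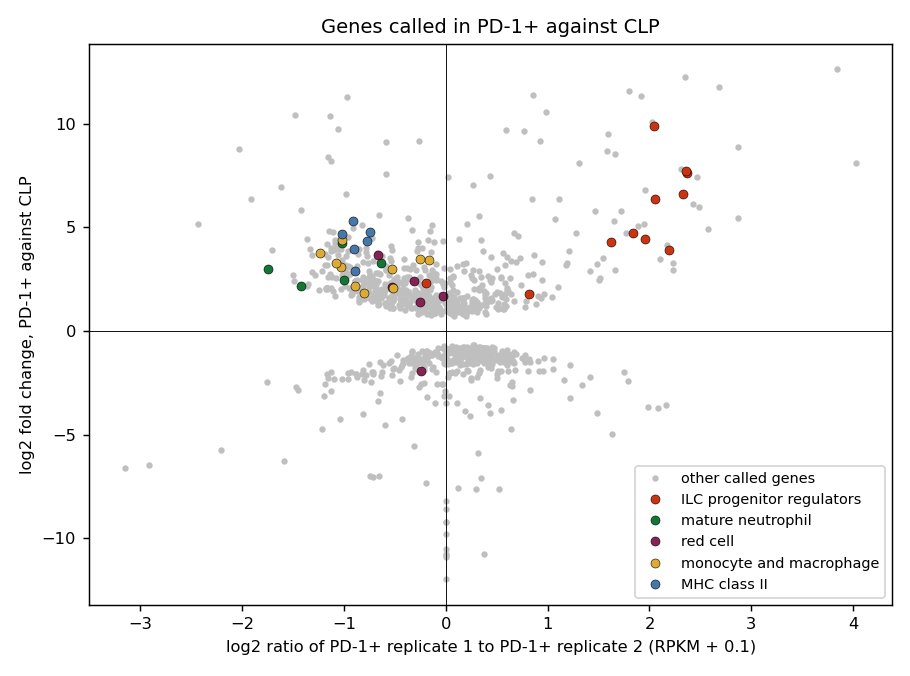
Log2 fold change of PD-1+ cells against CLP (vertical axis) and log2 ratio of PD-1+ 1 to PD-1+ 2 with 0.1 RPKM added (horizontal axis) for the 995 called genes, 1 point per gene, with list members coloured. Among called genes the regulators lie mostly to the right of 0, as with Gata3 at 5.03-fold, and called neutrophil genes to the left, as with Lyz2 at 0.495-fold.

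PD-1+ cells were also set against CCR6+ cells, which shared their enrichment route. With the same edgeR test 0 of 13619 genes were called (0%), the lowest adjusted p being 0.331; 801 had an unadjusted p under 0.05, and DESeq2's Wald test called 128. No gene therefore passed the test between these populations, with Pdcd1 at 181 and 36.3 against 0 and 1.10 RPKM and Zbtb16 at 46.1 and 11.8 against 0.732 and 1.23.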

How the data were processed

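The authors deposited 1 table per library with whole-number read counts, RPKM values and lengths of 29257 RefSeq transcripts. Smart-seq2 libraries, which amplify full-length polyadenylated transcripts, were read at 50 bp, per the labels' protocols. Per the submitters' processing notes, which give no role or order, mm9 was the mouse build and the tools were Bowtie2 2.2.2 and CASAVA 1.8.4. Not given in the sources used here are the counter, its strand setting and its treatment of reads that fit several genes, so antisense partners and near-identical copies (1106 genes share all counts with another gene) are uncertain. In the deposited tables each RPKM equals the count divided by length and by 1 total per library.

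For each of 22878 symbols the transcript of largest mean count was kept. The main test was edgeR 4.0.16 (R 4.3.3), two-sided, by a quasi-likelihood F test with robust priors, TMM scaling and filterByExpr at 10 counts, over 4 groups in 1 fit. Residual degrees of freedom were 4, and the common BCV (biological coefficient of variation) 0.526. Log2 fold changes and SE come from this fit. Folds against a group with no read are lower bounds against 3 reads over the group. Groups came from the labels. The rule named the gate genes, Zbtb16, Gata3, Id2, Tcf7, Tox, Rora, Nfil3 and Bcl11b, then 14 called genes per direction with the largest change, at least 10 RPKM in the higher group, no overlap of libraries and outside 4 lists of mature cells, then 4 members per list by lowest p. Other genes were named after their values were seen. Some genes that the rule names are not reported here. The members and lists were chosen with earlier results of these data known.

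On simulated data for this comparison (13619 genes, 200 changed, 3 runs) edgeR recovered 53.0% of changes of 2 on the log2 scale and 85.3% of changes of 4, with 7.56% and 5.54% of its calls false. The changed genes were drawn only from those above a minimum mean read count. The simulated spread came from the edgeR fit, and no library was made to stand apart, so these rates may not hold for the data. DESeq2 1.42.0 and limma 3.58.1 were alternatives, with other filters, thresholds, transcripts and left-out libraries or lists. Promoters came from RefSeq (GRCm38.p6); no coordinates of the deposited mm9 data were used.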

Additional observations from a re-analysis of the deposited data

How the results depend on the processing

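The count of 995 genes called (609 higher, 386 lower) was within 1.5 times of itself, in total and in each direction, with DESeq2 size factors (992), without a filter (1204), with the longest transcript (992) and without the neutrophil and red cell lists (1009). On data simulated with the spread of the edgeR fit, the DESeq2 Wald test had 32.5% false calls at a log2 change of 2. With that test the count moved to 2301 (1374 higher, 927 lower). It moved to 2147 (735 and 1412) with limma on log2(RPKM + 1), 1870 (655 and 1215) on log2(RPKM + 0.1), 208 (141 and 67) in only the 4 libraries compared, 37 (24 and 13) at an adjusted p under 0.01 and 121 (91 and 30) at 2-fold. Leaving out 1 of 5 libraries (the 4 compared and CCR6+ replicate 2) gave 8 to 815 genes, 5 to 565 higher and 3 to 323 lower. The 123 list genes called became 212 by DESeq2, 54 in the 4 libraries, 11 at an adjusted p under 0.01, 38 at 2-fold, and 4 to 110 with a library left out. Deviations of same-numbered libraries correlated over genes at -0.11 to 0.09. Within an enrichment route the values were 0.094 for CLP with ChILP and 0.080 for PD-1+ with CCR6+. The neutrophil share was higher in replicate 1 of CLP and ChILP and in replicate 2 of PD-1+ and CCR6+ cells. The red cell share moved in opposite directions in PD-1+ and CCR6+ cells. Whether same-numbered libraries of a route shared a preparation was not tested. With a replicate block 632 genes were called, 419 higher and 213 lower. With the block in the 4 libraries the count was 20, 14 higher and 6 lower, with 8 list genes. Chosen after seeing the data were that last setting, all mature lists left out (1009) and CCR6+ replicate 2 left out (789).

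The myeloid progenitor median, -0.26, became 0.060 with at least 5 RPKM in 2 libraries; with a library left out it ran from -0.90 to 0.15. The eosinophil, mast cell and basophil median, 0.03, became -0.34 and -0.42 in the limma fits, -0.15 with at least 5 RPKM, -0.11 with the replicate block, -0.15 with the block in the 4 libraries, and with a library left out from -0.87 (PD-1+ replicate 2) through -0.85 (PD-1+ replicate 1) and -0.26 (CLP replicate 2) to 0.41 (CLP replicate 1); the cause was not tested. Shares of reads of the mature lists moved by less than the spread between libraries. With 2 libraries a group, 53.0% of simulated log2 changes of 2 were recovered, so a gene that did not pass may still differ. The changed genes were drawn only from those above a minimum mean read count, so recovery at lower counts was not simulated.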

Other observations

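Genes named for other tissues stood among the calls, and those below beyond the named rule were chosen after their values were seen. Myl10 (NM_001085387), a myosin light chain, stood at 269 and 527 RPKM in CLP and 41.5 and 9.73 in PD-1+ cells, a log2 fold change of -3.71 (edgeR adjusted p = 0.0208), and at 3.50 to 24.4 RPKM in the ChILP and CCR6+ libraries. Myog, a factor of muscle, lay beside it among the genes found in CLP. On the PD-1+ side Chad (NM_007689), a cartilage matrix protein, stood at 0.339 and 0.909 RPKM in CLP and 32.0 and 10.2 in PD-1+ cells (log2 fold change 5.29, edgeR adjusted p = 0.0206), with 12.2 and 22.1 in ChILP. Col9a3 (NM_009936), a collagen of cartilage, had 2 reads in CLP and a ratio of pooled rates of 483 (exact Clopper-Pearson 95% interval 133 to 3991), or 258 without PD-1+ replicate 1. Pgam2 (NM_018870), the muscle form of phosphoglycerate mutase, stood at 2.68 and 0.453 RPKM in CLP and 55.6 and 16.2 in PD-1+ cells (log2 fold change 4.74, edgeR adjusted p = 0.0285), and Ckb (NM_021273), a creatine kinase, at 4.30 and 3.47 RPKM in CLP and 105 and 66.3 in PD-1+ cells.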
